A study of Drosophila melanogaster with 6 samples.

Results

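The genes described here are the chemosensory genes of Drosophila melanogaster, taken as every gene whose symbol is Or, Gr or Obp followed directly by a digit. They were measured in S2 cells with and without induced dBigH1, to ask whether genes that belong to other tissues stayed silent. The rule used the gene symbol and no measured value. RefSeq's gene table lists 171 such genes, and 159 of them had a probe set of their own, among 11982 genes with one: 56 Or, 56 Gr and 47 Obp genes. Another 9 were read only by probe sets that name more than 1 gene, and Obp83a, Or83a and Or98P were not analysed here. The co-receptor gene Orco and the odorant-binding protein gene lush carry symbols outside the rule.

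S2 is a cell line from late embryos with features of macrophage-like blood cells. The 6 samples, 1 Affymetrix Drosophila array each, fall into 2 groups of 3. Cells called S2 control here were wild type S2 cells. The other group is S2 cells of a line that carries dBigH1::FLAG, an embryonic linker histone with an epitope tag, and that were induced to make it. Both groups received 1 mM copper sulphate for 24 h and grew in the same Schneider's medium with serum and antibiotics, while the dBigH1::FLAG cells had been kept in 0.3 mg/ml hygromycin B before. Transgene, selection history and dBigH1 therefore cannot be told apart, and the labels do not say whether the replicates were separate cultures, and a p-value here reflects just how far these 6 samples scatter, which may be technical.

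Odorant receptors (Or) are ion channel proteins of olfactory neurons that work together with Orco. Gustatory receptors (Gr) sense sugars, bitter compounds and carbon dioxide in taste neurons and some olfactory neurons. Odorant-binding proteins (Obp) are small secreted proteins, best known from the fluid around the sensory dendrites, and some are made in other tissues. Most olfactory neurons make very few odorant receptors, and blood cells are not known for making odorant or gustatory receptors.

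The values are log2 signals after RMA (background correction, normalization between arrays and summary over probes), and no detection call was used, so silence itself could not be measured. The overall median signal, 6.34 for S2 control and 6.33 for induced cells, serves here as the mark of a dim gene. A level is set against this mark only as a description, since probe sets differ in how brightly they report the same amount of RNA. BigH1 read 4.86 to 5.42 on the S2 control arrays and 13.43 to 13.47 on the induced arrays, which matches the group labels. The 12 measured markers of S2 cells and plasmatocytes were all above the median in both groups, with array means of 10.07 to 10.16 in S2 control and 10.17 to 10.22 in induced cells. Of 7 measured neuronal markers 5 were also above it, led by elav at 10.06 and brp at 8.48 in S2 control. None of the 7 passed the test in limma (0 at an unadjusted p under 0.05), and their array means were 6.81 to 6.87 in S2 control and 6.81 to 6.86 in induced cells. The olfactory co-receptor gene Orco stood at 5.83 ± 0.0929 (SD, n = 3) and 5.69 ± 0.0601 (adjusted p = 0.134). The signal at the 5′ end of Act5C relative to its 3′ end was -1.26 ± 0.0869 (SD, n = 3) for S2 control and -1.79 ± 0.0778 for induced cells, a measure of RNA quality that moved with the group. The same measure differed by 0.03 for the actin control and by -0.08 for the GAPDH control (induced minus S2 control). Its part in the results below was not tested.

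The chemosensory genes were dim as a class in both groups. Above that overall median lay 22 of the 159 in S2 control and 21 after induction, where 7000 and 6961 of all 11982 genes did. As a set they had a median level of 4.43 in S2 control and 4.45 after induction, against 7.23 and 7.17 over all genes. By array, the median over the 159 genes read 4.50, 4.39 and 4.48 in S2 control and 4.42, 4.41 and 4.46 in induced cells. The groups overlapped in this median, and the median change over the genes was 0.00 on the log2 scale, against -0.01 over all genes. Gr94a was brightest in S2 control at 9.63, and was the 1 gene above the upper quartile of all probe sets there (9.29). In induced cells no chemosensory gene lay above that quartile (9.30), and Or43b was brightest at 9.22. Odorant-binding protein genes were brighter as a family than the receptors, with a median of 5.06 in S2 control against 4.37 for Or and 4.17 for Gr genes, a comparison across probe sets that carries no test. The lowest signals over all arrays were those of Or13a (3.16 and 3.10), Gr98c (3.16 and 3.16) and Or24a (3.26 and 3.17).

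**Figure D1:**
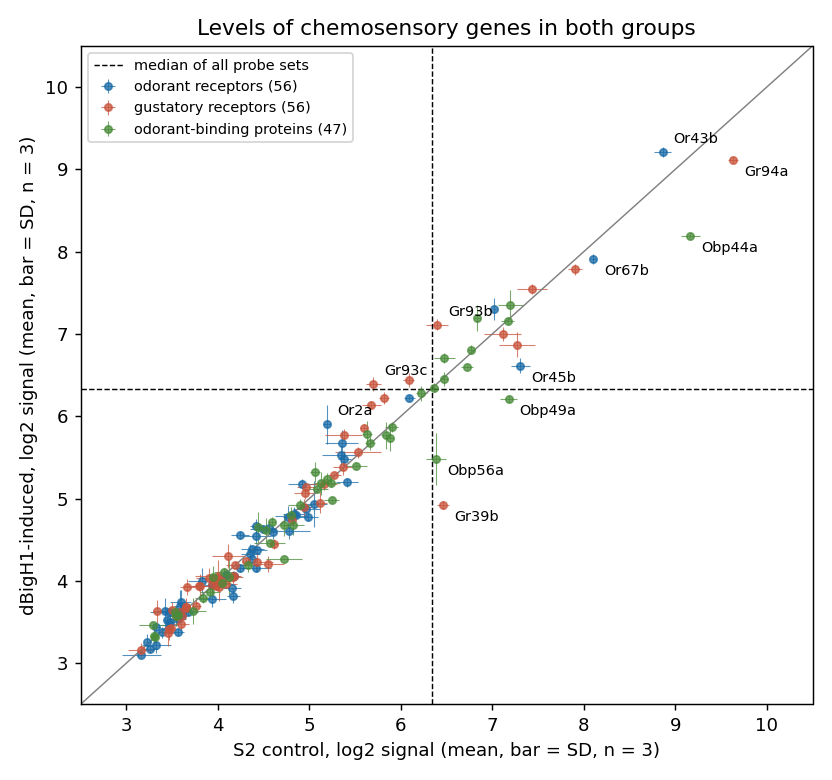
Mean log2 signal of each of the 159 chemosensory genes in S2 control (x axis) and dBigH1-induced cells (y axis); bars are SDs of 3 arrays, dashed lines the medians of all probe sets (6.34 and 6.33) and the grey line equality. Most genes lie in the lower left corner, on the line, and Gr39b, Obp49a and Obp56a lie in the lower right, above the median only in S2 control.

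Differences between the groups were tested with limma over all 18769 probe sets, and a gene "rose" or "fell" in induced cells where its adjusted p was under 0.05. Of the 159 chemosensory genes 19 rose, 17 fell and 123 did not pass, which is 22.6% changed beside 30.5% of all genes. That background is set mostly by bright genes: 14.0% of genes with a mean below the median of all probe sets were called, and 42.3% of those above it. Among the 139 chemosensory genes below the median 25 changed (14 rose and 11 fell), where 5.34% of all such genes rose and 8.66% fell. Among the 20 above it, 11 changed (5 rose and 6 fell). For 53 of the 159 genes every array of one group lay above every array of the other (33.3%), where this held for 45.4% of all genes. On each side of the median the shares were thus 18.0% against 14.0% (below) and 55% against 42.3% (above), a description with no test. Signal was not matched within a side. Below the median, S2 control levels had a median of 4.24 for chemosensory genes against 4.88 for all genes, and above it 7.17 against 9.53. The called share of all genes also varied with signal within each side. In these bulk samples, fewer cells that make a transcript and less of it per cell cannot be told apart. By family, 15 of 56 Or genes changed (7 rose, 8 fell), 13 of 56 Gr genes (9 rose, 4 fell) and 8 of 47 Obp genes (3 rose, 5 fell).

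Few of these differences were large. The 36 called genes had a median absolute log2 difference of 0.35, against 0.32 for every called gene of the series, and 9 of the 36 differed by at least 0.5. Gr39b alone changed by at least 2-fold, where 1.47% of all genes did. At an adjusted p under 0.01, 20 of the 159 remained called, beside 19.7% of all genes. Each of the 123 genes that did not pass had a 95% interval that lay within a 2-fold change, from a lowest bound of -0.41 (Gr64a) to a highest of 0.41 (Obp47b). These intervals describe the log2 signal and not the amount of RNA. With each array left out in turn, 26 to 32 chemosensory genes changed, beside 23.5% to 28% of all genes. The number of chemosensory genes that fell dropped to 10 without induced replicate 2 and 11 without induced replicate 1. How many of all called genes passed in every fit was not counted. Of the 36 chemosensory genes, 22 passed in all 6 fits (12 that rose and 10 that fell). The other 14, which are named with their values below, lost the call in at least 1 fit.

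**Figure D2:**
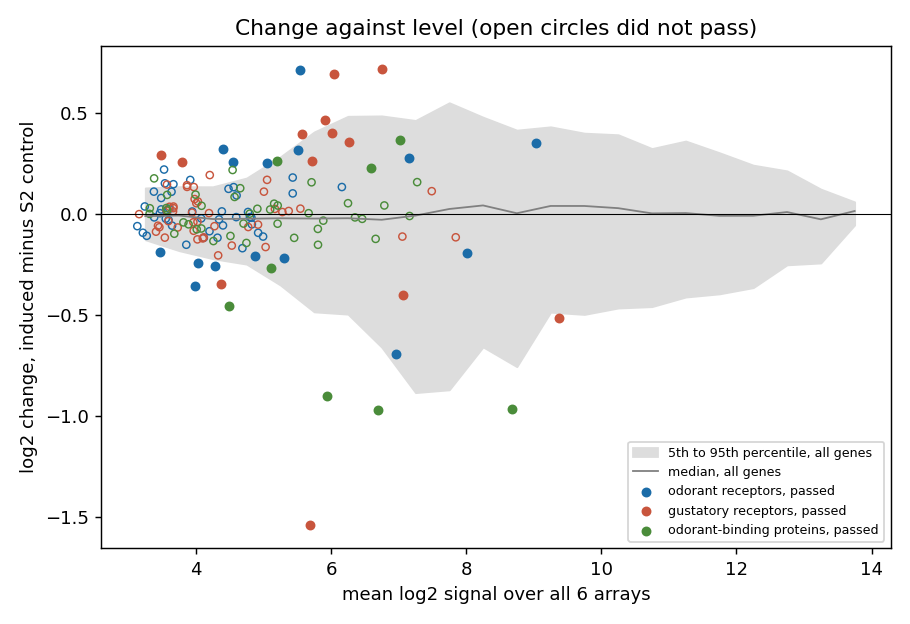
Log2 change (induced minus S2 control) of each chemosensory gene against its mean log2 signal over 6 arrays; filled circles passed the test, and grey shows the 5th to 95th percentile of all genes in bins of 0.5. The open circles gather near 0 at low signal, Gr39b lies lowest at -1.54, and Gr93b, Or2a and Gr93c lie highest at 0.72, 0.71 and 0.69.

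Among the gustatory receptors the most marked group was Gr93a to Gr93d, which follow each other in the genome and all rose. Gr93a is known as a receptor needed for the response to caffeine. Gr93b read 6.47, 6.45 and 6.26 in S2 control and 7.17, 7.03 and 7.14 in induced cells, a rise of 0.72 (SE 0.07, adjusted p = 5.695e-05). Gr93c read 5.76, 5.72 and 5.61 in S2 control against 6.46, 6.42 and 6.29, a rise of 0.69 (SE 0.06, adjusted p = 4.472e-05). All 3 induced arrays stood above all 3 S2 control arrays for both genes, and Gr93c, like Gr93a, moved from below to above the median of all probe sets. Gr93d read 5.80, 5.63 and 5.61 and then 6.13, 6.20 and 6.10 (rise of 0.46, SE 0.06, adjusted p = 0.000517). Gr93a read 6.06, 6.15 and 6.04 and then 6.54, 6.41 and 6.37 (rise of 0.36, SE 0.06, adjusted p = 0.00205), and its dimmer probe set rose by 0.51 (adjusted p = 0.00595). The groups again did not overlap for either gene, and all 4 calls held with each array left out. Of the measured genes directly beside this run, CASK fell by 0.23 (adjusted p = 0.0308) and glec stood at 0.04 (adjusted p = 0.811), while lsn, next after glec, rose by 0.39 (adjusted p = 0.000742). In RefSeq's table Gr93d also overlaps the antisense gene asRNA:CR44087, for which no probe set is named here.

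The largest change of any chemosensory gene was the fall of Gr39b. It read 6.54, 6.42 and 6.43 in S2 control and 4.98, 4.87 and 4.92 in induced cells, a gap many times the spread within either group. The fall was 2.91-fold (log2 -1.54, SE 0.06, adjusted p = 9.313e-08), from just above the median signal of S2 control. Of the 6 measured genes around it 3 fell: dtr, the nearest measured gene on one side, fell by 0.45 (adjusted p = 0.00236), the transcription factor gene dimm farther on that side fell by 1.05 (adjusted p = 2.585e-06), and the sodium pump subunit gene nrv3 on the other side fell by 0.56 (adjusted p = 0.00239). Tsp39D (-0.30, adjusted p = 0.0533), CG8665 (-0.19, adjusted p = 0.0928) and Lamp1 (-0.05, adjusted p = 0.498) did not pass. Gr39a, a bitter receptor gene that overlaps Mondo (10.34, fell by 0.44), stood at 7.43 ± 0.166 and 7.55 ± 0.0658 (n = 3 each, adjusted p = 0.373). It passed as higher without S2 control replicate 1 (change 0.21, adjusted p = 0.0404), and none of its other 4 probe sets passed.

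**Figure D3:**
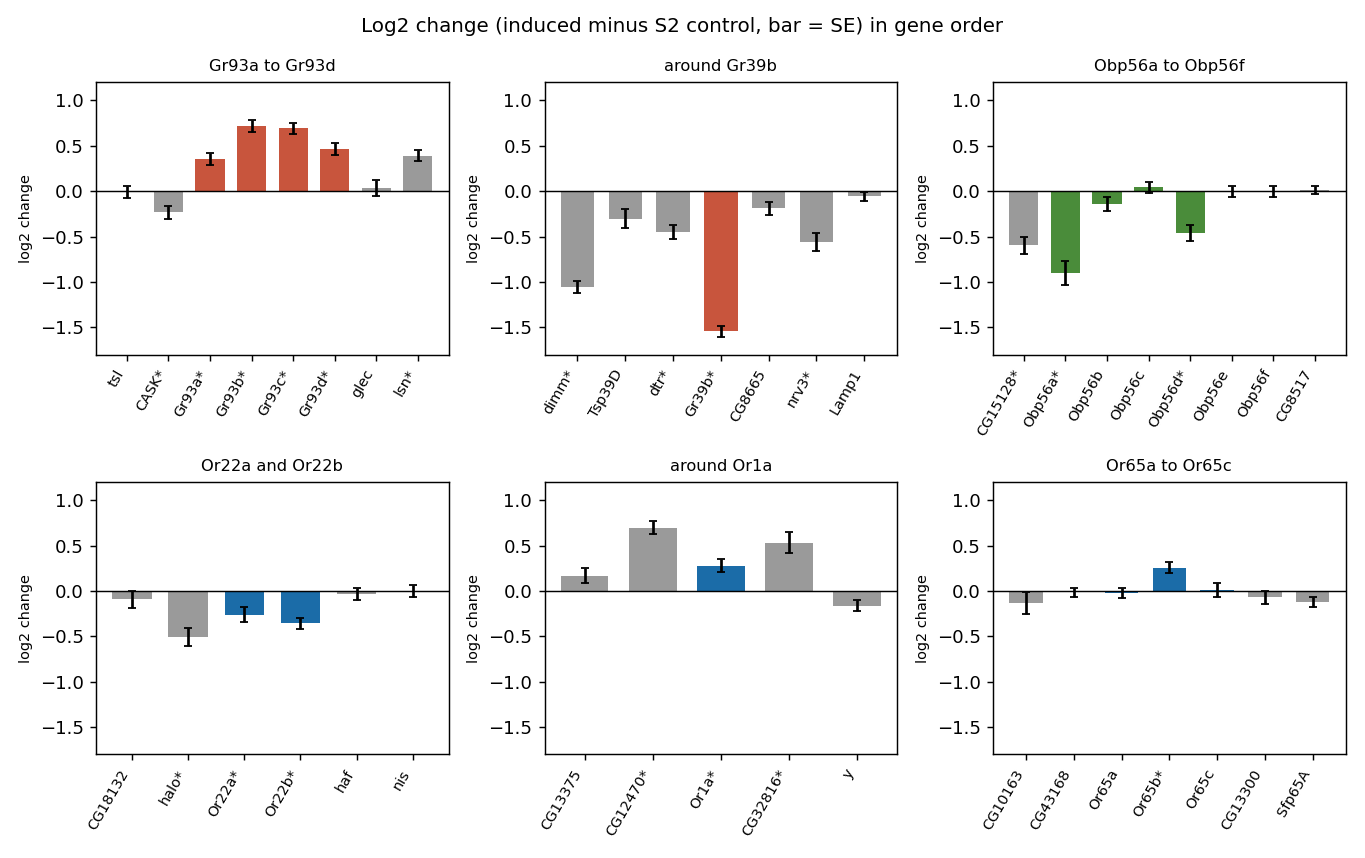
Log2 change (induced minus S2 control, bars SE) of chemosensory genes (coloured) and the measured genes beside them (grey), in gene order, with an asterisk on genes that passed. The number of genes shown on each side differs between panels. All 4 genes from Gr93a to Gr93d rose, by 0.36 to 0.72, while beside Gr39b (-1.54) dimm, dtr and nrv3 fell and Tsp39D, CG8665 and Lamp1 did not pass, and Or65b (0.26) rose between 2 neighbours, Or65a and Or65c, near 0.

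The remaining gustatory receptors that passed are spread over several senses. Of 5 sugar receptor genes, grouped like the other roles after the values were seen, 1 rose, where 14.5% of all genes rose. This was Gr43a, the receptor for fructose. It read 5.76, 5.87 and 5.82 in S2 control and 6.17, 6.30 and 6.18 in induced cells (rise of 0.40, SE 0.06, adjusted p = 0.000704). Of the other 4, Gr61a (7.90 and 7.79) and Gr5a (7.11 in S2 control), the trehalose receptor, stood above the median in both groups, and Gr64a and Gr64f stood below it. Gr43a overlaps the helicase gene Dhx15 in RefSeq's table. Carbon dioxide is sensed by Gr21a and Gr63a together. Gr63a read 7.05, 7.43 and 7.32 in S2 control and 6.86, 6.72 and 7.03 in induced cells, with the nearest arrays of the groups almost touching. It fell by 0.40 (SE 0.11, adjusted p = 0.0185) and lost the call in 4 of 6 fits with an array left out (adjusted p up to 0.0732). Its partner Gr21a stood at 5.16 and 5.18 (adjusted p = 0.86).

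Of 6 bitter receptor genes looked at, a selection made after the values were seen and not all that are known, 3 rose, Gr93a included. These 3 had means below the median of all probe sets, where 5.34% of genes rose, beside 14.5% of all genes. Gr8a, Gr22e, Gr47a, Gr59c and Gr98b, also linked to bitter sensing, did not pass. Gr66a, made in most bitter neurons, read 5.56, 5.58 and 5.64 in S2 control and 5.80, 5.90 and 5.87 in induced cells (rise of 0.26, SE 0.05, adjusted p = 0.0048). Gr32a, a co-receptor for bitter compounds that also restrains male courtship of males, read 5.31, 5.22 and 5.60 and then 5.81, 5.70 and 5.82 (rise of 0.40, SE 0.09, adjusted p = 0.00992). It overlaps CG6230, a bright gene at 10.33 that rose by 0.20. Gr33a, which is needed with Gr66a for most bitter responses, stood at 3.47 and 3.41 (adjusted p = 0.608), and Gr89a at 4.16 and 4.04 (adjusted p = 0.251). Gr28b, known for warmth and light responses, rose by 0.29 from 3.33 (adjusted p = 0.0132) and Gr85a rose by 0.26 from 3.67 (adjusted p = 0.0167). In S2 control both lay among the dimmest 5 in 100 probe sets, and they lost the call with arrays left out, Gr28b without induced replicate 2 (adjusted p = 0.0515) and Gr85a in 4 fits (up to 0.0656). Gr10b fell by 0.34 from 4.55 (adjusted p = 0.0175) and lost the call without induced replicate 2 (adjusted p = 0.0664).

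The brightest gustatory receptor gene, Gr94a, lies over a gene that is active in these cells. It read 9.67, 9.57 and 9.66 in S2 control and 9.16, 9.10 and 9.10 in induced cells and fell by 0.52 (SE 0.05, adjusted p = 8.36e-05), with no overlap of arrays. The gene that it overlaps in RefSeq's table is p53, the tumour suppressor, at 10.34 in S2 control with a change of 0.08 (adjusted p = 0.393). The same held for the brightest genes of the other families. Or43b overlaps Cul1, a ubiquitin ligase scaffold gene at 11.54, Obp44a overlaps Pabp2, a poly(A)-binding protein gene at 11.87, and Or67b overlaps both CG3335 (7.26) and the cyclophilin gene Cyp40 (8.53). Over all 159 genes, 44 overlap another gene in that table. Of these 44, 9 were above the median in S2 control, as were 13 of the 115 that overlap none. Whether signal from the overlapping gene enters these probe sets was not tested. CG3335, Cul1 and Pabp2 rose (by 0.38, 0.22 and 0.16), and Cyp40 did not pass. Of the genes lying over them Or43b rose while Or67b and Obp44a fell. Among other called genes, Gr32a rose by 0.40 over CG6230, which rose by 0.20. Obp84a rose by 0.37 over Dtwd2, which rose by 0.84. Or1a, Or71a and Obp99c rose over genes that did not pass.

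Among the odorant receptors that rose, Or2a had the largest change. It read 5.18, 5.23 and 5.15 in S2 control and 5.91, 6.13 and 5.66 in induced cells, so the induced arrays spread more but stayed above every S2 control array. The rise was 0.71 (SE 0.10, adjusted p = 0.000631). The genes on its sides, fs(1)K10 and the splicing factor gene crn, rose as well, by 0.27 (adjusted p = 0.00706) and 0.42 (adjusted p = 0.000615). Or43b read 8.80, 8.82 and 8.97 in S2 control and 9.17, 9.28 and 9.19 in induced cells (rise of 0.35, SE 0.06, adjusted p = 0.0025). Or1a, a receptor of the larva, read 7.01, 7.04 and 7.01 and then 7.17, 7.29 and 7.44 (rise of 0.28, SE 0.07, adjusted p = 0.0132), between CG12470 and CG32816, which rose by 0.70 and 0.53, and the gene it overlaps, CG3777, stood at -0.06 (adjusted p = 0.674). Both were cases of a receptor gene whose arrays did not overlap and whose call held with each array left out, though Or1a reached an adjusted p of 0.0468.

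Of 4 receptors for odours of other flies, all below the median, 1 rose, where 5.34% of genes below it rose. This was Or47b, which senses fatty acid esters of the fly's surface. It read 4.34, 4.15 and 4.23 in S2 control and 4.51, 4.57 and 4.60 in induced cells (rise of 0.32, SE 0.06, adjusted p = 0.00401), between sha, which rose by 1.03 (adjusted p = 0.000216), and nompA, at 0.07 (adjusted p = 0.531). Or67d, the receptor for the male pheromone cis-vaccenyl acetate, stood at 3.39 and 3.37 (adjusted p = 0.889). Or65a and Or88a stood at 3.57 and 4.97 in S2 control and did not pass (adjusted p = 0.818 and 0.432). Or65b, next to Or65a, rose by 0.26 (adjusted p = 0.0116), and by 0.22 without induced replicate 3, where it lost the call (adjusted p = 0.0516).

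Among 6 receptors for fruit and yeast odours, also selected after the values were seen, 3 fell. All 3 lay below the median, where 8.66% of genes fell. Of these 3, Or22a and Or42a lost the call in 5 of 6 fits with an array left out. Or92a, the receptor for diacetyl, read 4.17, 4.24 and 4.04 in S2 control and 3.90, 3.92 and 3.90 in induced cells and fell by 0.24 (SE 0.06, adjusted p = 0.0133). It lies between MtnB, a copper-responsive metallothionein gene that fell by 1.65, and MFS9, which fell by 0.18 (adjusted p = 0.0499). Or42a fell by 0.22 from 5.41 (adjusted p = 0.0417), with adjusted p up to 0.132 with an array left out. Or22a, a receptor for fruit esters, fell by 0.26 (adjusted p = 0.0388, up to 0.123 with an array left out) and its neighbour Or22b by 0.36. Or22b read 4.11, 4.15 and 4.25 in S2 control and 3.88, 3.72 and 3.85 in induced cells (SE 0.06, adjusted p = 0.00243). These 2 genes are close copies of each other, so their probe sets may share transcripts, and of the genes beside them halo fell by 0.51 (adjusted p = 0.00357) and haf stood at -0.03 (adjusted p = 0.757). Or42b, Or59b and Or85a did not pass, with changes of -0.15, 0.10 and 0.17.

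Or45b, a receptor of the larva, fell most within the family. It read 7.28, 7.42 and 7.22 in S2 control and 6.61, 6.71 and 6.53 in induced cells, a fall of 0.69 (log2 change -0.69, SE 0.07, adjusted p = 6.88e-05) with no overlap. Of its neighbours the alkaline phosphatase gene Alp6 fell by 0.68 (adjusted p = 2.868e-05) and CG1888 rose by 0.44 (adjusted p = 0.00111). The remaining odorant receptors that passed did so narrowly. Or67b fell by 0.19 (adjusted p = 0.0246), Or43a fell by 0.21 (0.0388), Or85c fell by 0.19 (0.0343), Or71a rose by 0.25 (0.0354) and Or85f rose by 0.32 (0.0439). Each lost the call in 4 or 5 of the 6 fits with an array left out, where adjusted p reached 0.087 to 0.149. Just short of the threshold lay Gr10a (-0.16, adjusted p = 0.0618), Gr77a (0.17, adjusted p = 0.0692) and Or98a (0.22, adjusted p = 0.0697). Each passed under an alternative, Gr10a with centring on ribosomal protein genes (adjusted p = 0.0369), Gr77a without S2 control replicate 1 (0.0368), and Or98a with trended robust moderation (0.0426) and without induced replicate 3 (0.0222).

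**Figure D4:**
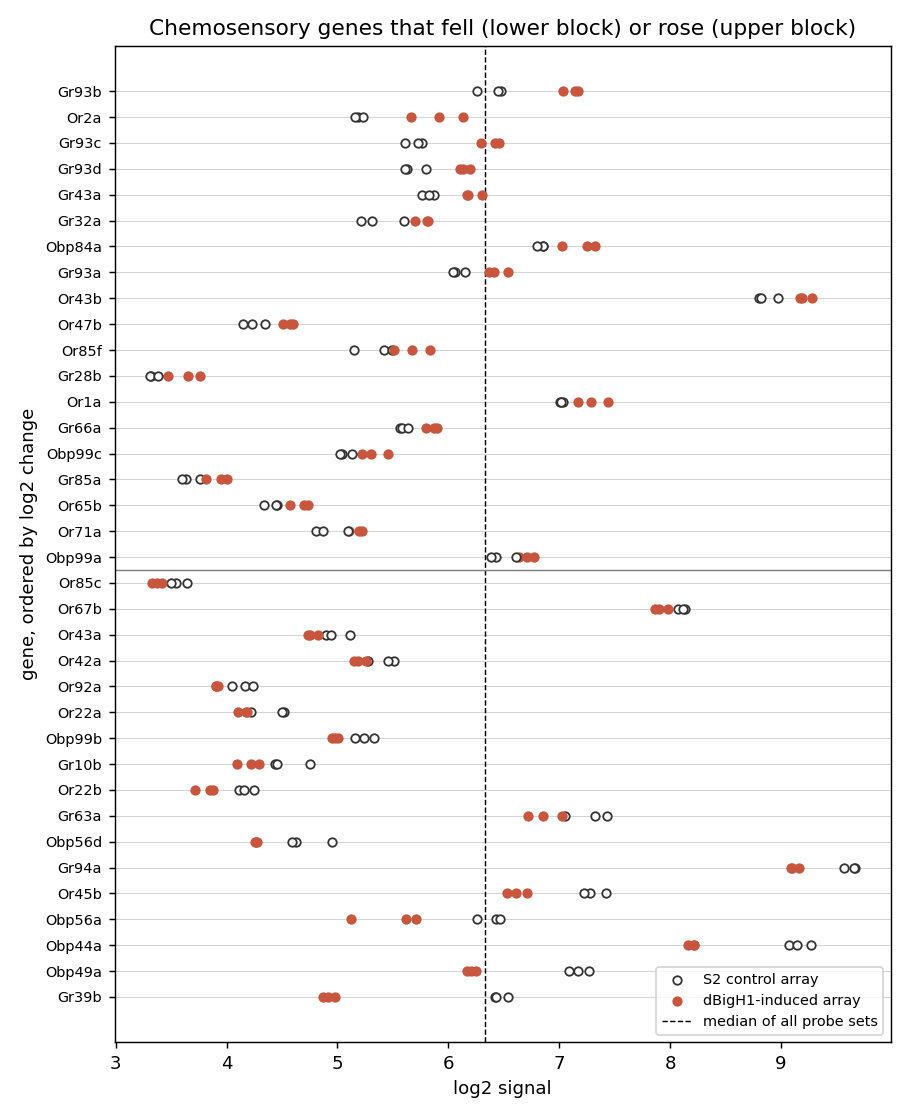
Log2 signal of the 36 chemosensory genes that passed, each array as 1 point (open for S2 control, filled for induced), ordered by log2 change with the 17 that fell in the lower block and the 19 that rose in the upper; the dashed line is the median of all probe sets. Most points lie left of the line, and for Gr39b, Obp49a and Obp44a the groups stand far apart.

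The odorant-binding protein genes gave the largest falls after Gr39b. Obp49a, which in taste organs takes part in the suppression of sweet taste by bitter compounds, read 7.17, 7.27 and 7.09 in S2 control and 6.21, 6.25 and 6.17 in induced cells. It fell 1.96-fold (log2 -0.97, SE 0.06, adjusted p = 3.102e-06) and moved from above to below the median of all probe sets. Obp44a, an odorant-binding protein also found in glia, read 9.07, 9.15 and 9.27 and then 8.21, 8.22 and 8.16, a 1.95-fold fall (log2 -0.97, SE 0.06, adjusted p = 3.84e-06). In both genes the gap between the groups was many times the range within either. Obp56a read 6.43, 6.47 and 6.26 in S2 control and 5.62, 5.12 and 5.71 in induced cells, where induced replicate 2 stood lowest. It fell by 0.90 (SE 0.13, adjusted p = 0.000785), and by 0.72 without that replicate. CG15128 beside it fell by 0.60 (adjusted p = 0.000892). Of the 6 genes in the run from Obp56a to Obp56f, Obp56a and Obp56d fell and the other 4 stood between -0.14 and 0.04. Obp56d read 4.63, 4.95 and 4.59 in S2 control and 4.26, 4.27 and 4.27 in induced cells (fell by 0.46, SE 0.09, adjusted p = 0.0037).

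Members of the Obp99 group went both ways. Obp99b read 5.24, 5.16 and 5.33 in S2 control and 5.004, 4.97 and 4.96 in induced cells (fell by 0.27, SE 0.06, adjusted p = 0.00689). Obp99a rose by 0.23 (adjusted p = 0.0322) and Obp99c by 0.26 (adjusted p = 0.0175), while Obp99d stood at 5.90 and 5.87. The 2 rises were lost in 4 and 3 of 6 fits with an array left out (adjusted p up to 0.108 and 0.0659). Obp84a read 6.85, 6.86 and 6.80 in S2 control and 7.02, 7.32 and 7.26 in induced cells (rise of 0.37, SE 0.08, adjusted p = 0.00582), and the gene it overlaps, Dtwd2, rose by 0.84 (adjusted p = 0.000246), while Gld on the other side stood at -0.16 (adjusted p = 0.215). The 4 genes from Obp19a to Obp19d, of which Obp19b (7.17), Obp19c (6.77) and Obp19d (6.47) were above the median in S2 control, did not pass, with changes of -0.12 to 0.04. Obp28a, an abundant protein of the antenna, stood at 6.36 and 6.35 (adjusted p = 0.863).

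Position in the genome was looked at across the whole set. With at most 1 other gene between them, 73 of the 159 genes form 25 runs of 2 to 6 genes. In 16 runs no member passed, among them the 6 genes from Gr22f to Gr22a (-0.12 to 0.05). In 3 runs 2 or more members passed, and within each of these 3 they went the same way. Of 14 runs with at least 3 genes, Gr93a to Gr93d was the 1 in which every gene passed. Over the 36 changed genes, the nearest measured gene on either side was called the same way in 26 of 72 cases (36.1%) and the opposite way in 8 (11.1%). Over the 3639 changed genes of the series that have a place in RefSeq's table these shares were 27.2% and 11.5%. Neighbours inside the same run, such as the Gr93 genes, count for each other here, and no test was made.

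Lists of other genes that belong to sensory organs or other tissues had called shares of 5.88% to 33.3%, beside 30.5% of all genes, and their differences from the chemosensory genes were not tested. Of 74 genes of chemosensory partners and ionotropic receptors 7 rose, 4 fell and 63 did not pass (median change -0.03). Ir40a and Ir93a, which work together in sensing dry air, rose from 6.99 to 7.87 (0.88, adjusted p = 0.000104) and from 7.41 to 7.87 (0.46, adjusted p = 0.000238), while their co-receptor Ir25a stood at 6.15 and 6.07 (adjusted p = 0.365). The CD36-like gene Snmp1, which serves pheromone detection, rose by 0.44 from 7.66 (adjusted p = 0.00419). Ir54a fell by 0.65 (adjusted p = 0.000704) and the transcription factor gene pdm3 fell by 0.40 (adjusted p = 0.000826). Of 12 photoreceptor genes 3 rose and 1 fell (median -0.02), with the photoreceptor surface protein gene chp up by 1.26 (adjusted p = 1.263e-06), the scaffold gene inaD up by 0.66 and the channel gene trpl lower (fell by 0.82). Of 17 eggshell and yolk genes 1 rose, Yp2 by 0.21 (median 0.01), and it lost the call without induced replicate 3 (adjusted p = 0.0521). Of 25 seminal fluid genes 1 rose and 2 fell (median -0.02), and of 74 cuticle genes 1 rose and 6 fell (median -0.01). Sfp26Ad fell by 0.60, Acp98AB fell by 0.46, Cpr51A fell by 0.58 and Cpr73D fell by 0.55, whereas Cpr78Ca rose by 0.93. Acp95EF rose by 0.23 from 12.10, near the top of the range for a gene of the seminal fluid. Pooled, 26 of these 202 genes changed, 12.9%. Most of the 202 were dim, with 30 above the median in S2 control. Among all genes 14.0% of those below the median and 42.3% of those above it were called. Of the 12 markers of S2 cells and plasmatocytes, all above the median, where 42.3% of genes were called, 9 passed (6 rose, 3 fell), with Pxn and ush up by 0.65 and 0.55 while Sr-CI fell by 1.09 and He fell by 0.71.

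**Figure D5:**
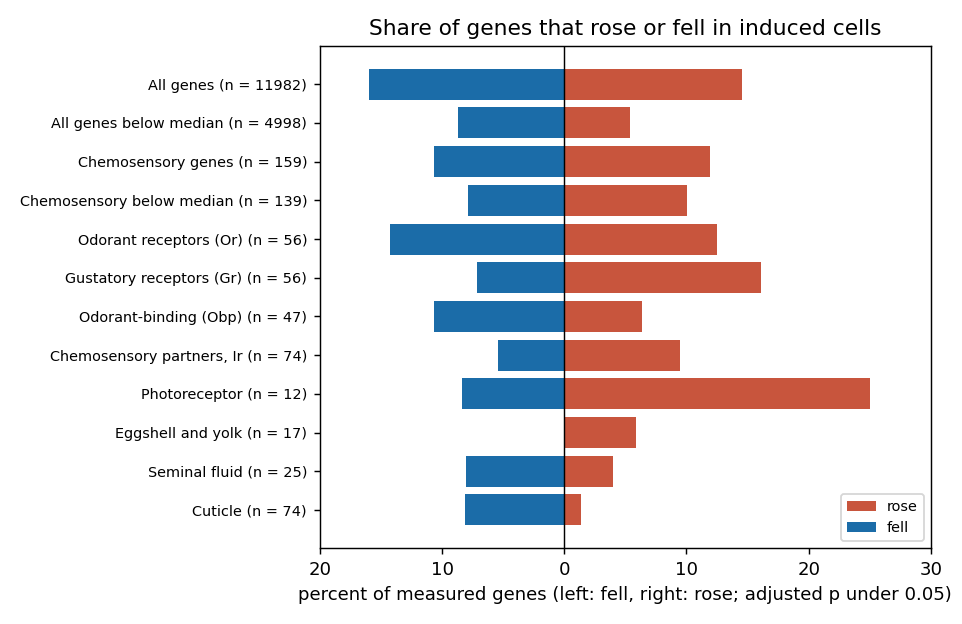
Percent of measured genes that rose (right) or fell (left) in induced cells at an adjusted p under 0.05, for all genes, genes below the median of all probe sets, the chemosensory genes and their families, and lists of other tissues. The chemosensory genes (22.6% in all) lie between genes below the median (14.0%) and all genes (30.5%); lists of 12 to 25 genes rest on few genes each.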

How the data were processed

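Total RNA (25 ng per sample, amplified isothermally and labelled with biotin, per the labels' protocols) was measured on 6 arrays. The authors deposited 1 log2 value per probe set and array, computed with RMA per the submitters' processing notes. Its version and annotation are not stated in what was used here. Of 18952 probe sets 183 platform controls were left out. The platform annotation names 1 gene for 13647, several for 402 and none for 4720, and 13544 symbols were updated through the gene identifier with RefSeq's Release 6 table, which also gave gene order and overlaps, without strand. Where a gene had several one-gene probe sets, the brightest on average stood for it. Of the chemosensory genes 9 have several such probe sets and 2 of these have a further probe set that passed, Gr93a and Or46a (Or46a fell by 0.29 on the one not used).

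Here, limma 3.58.1 in R 4.3.3 (lmFit and untrended eBayes with a group term, two-sided) was fitted to all 18769 probe sets with Benjamini-Hochberg adjustment and a threshold of 0.05. All adjusted p-values, SEs and 95% intervals come from this fit (prior SD 0.0754, 5.50 prior and 4 residual degrees of freedom). It was also tested on simulated data with independent normal noise, which cannot show effects shared by the arrays of a group. The number of arrays limits the precision, and normalization removes any change shared by all transcripts.

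The genes, the lists and the tests were chosen with earlier results of these data known, and the groups by receptor role, the runs and the neighbours after the values were seen. Named were up to 12 passing genes per direction by smallest adjusted p, the 6 brightest, the 3 dimmest, the 3 just short of the threshold, up to 2 passing genes per direction of the other lists, and BigH1; the other passing genes, members of role groups, neighbours and overlapping genes were named outside this rule. Also tried were leaving out dim probe sets, other scalings and moderation, weighting arrays, blocking on the replicate number, leaving out single arrays, averaging the probe sets of a gene, no s or x probe sets, and stricter thresholds.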

Additional observations from a re-analysis of the deposited data

Results flagged for a closer look

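The probe set that names both Or19a and Or19b, a pair of odorant receptor genes, entered none of the comparisons above because it reads more than 1 gene, and it differed between the groups. It read 6.04, 6.17 and 6.18 in S2 control and 6.64, 6.94 and 6.70 in induced cells, with no overlap of arrays. The rise was 0.627 on the log2 scale (SE 0.08, adjusted p = 0.000324 in limma). Which of the 2 genes gives the signal cannot be told from it. The other 7 probe sets that name a chemosensory gene together with another gene did not pass.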

How the results depend on the processing

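With only probe sets above the median of all probe sets, 20 chemosensory genes were left and 11 changed (5 rose and 6 fell). They were 4 Or, 3 Gr and 4 Obp genes. Of the other tissue genes 17 changed. Fewer genes were tested in this fit, and 50.5% of all 6984 were called. At an adjusted p under 0.01, 20 changed (11 rose and 9 fell, 5 of the 20 being Or genes), beside 19.7% of all genes. At 2-fold or more 1 changed (0 rose, 1 fell, with 0 Or, 1 Gr and 0 Obp), beside 1.47% of all genes. Of the other tissue genes 1 changed too. With the bound at the upper quartile 1 gene lay above it in S2 control and 0 in induced cells, and at the lower quartile 59 and 57. With each array left out, 26 to 32 changed, 16 to 18 rose, 10 to 15 fell, 8 to 13 Or, 9 to 15 Gr and 6 to 9 Obp genes changed, as did 19 to 28 of the other tissue genes. Of all genes 23.5% to 28% were called in these 6 fits. Fell was lowest without induced replicate 2 (10) and replicate 1 (11), and Or was lowest without induced replicate 2 (8). Under the other scalings, moderation, array weights and probe set choices, 34 to 37 chemosensory genes changed, beside 29.1% to 34.9% of all genes. Signs were compared across settings only for the genes named by rule and the called chemosensory genes. Among these the signs of 2 dim genes near 0 turned. Gr98c was 0.00225 with array medians centred and 0.00141 after quantile normalization. It was 0.0704 without S2 control replicate 1, 0.0318 without induced replicate 1 and 0.0182 without induced replicate 2. Or13a was 0.0584 without S2 control replicate 1. With single arrays left out Gr98c ranged from -0.0698 to 0.0704 and Or13a from -0.147 to 0.0584. The cause was not tested. Deviations of same-numbered arrays correlated at 0.038, -0.098 and 0.013, and those of differently numbered arrays at -0.143 to 0.144. These values give no sign of pairing by number. With 3 arrays per group they cannot tell whether same-numbered samples were handled together. With the replicate number as a block 31 chemosensory genes changed, beside 27.3% of all genes. In that fit Or85c, Or43a, Or22a, Or42a and Or85f were not called. Signal near background limits what can be said of the dimmest genes.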
